A study of Mus musculus with 6 samples.

Results

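NRF2, glutathione and the enzymes that remove peroxides and superoxide form the main antioxidant defence of a mammalian cell. They were described here in mouse fibroblasts that overexpress human FEAT. Members were chosen by name, as all probes whose gene symbol was one of 39 listed genes. Of these genes, 35 had at least 1 probe, 70 probes in all, among 19057 named genes and 45281 probes on the array. Gsr, Prdx5, Prdx6 and G6pdx are listed without a matching probe symbol and were not analysed here.

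The 6 samples were stable clones of NIH3T3, an immortalised fibroblast line from embryos of NIH Swiss mice. FEAT 3, FEAT 15 and FEAT 20 carried the vector pEF-DEST51-FEAT, in which the promoter of elongation factor 1 alpha drives the reading frame of human FEAT, a protein also known as METTL13 or EEF1AKNMT. They were kept for 7 days in blasticidin S at 10 µg/ml and picked for high FEAT protein. Control 1, control 2 and control 3 (the ΔccdB clones) carried the same vector without its ccdB gene and without FEAT, and how they were selected is not given in the sources used here. Each sample was 1 clonal line on 1 array, so a difference between groups includes whatever sets 3 picked clones apart from 3 others. The probes read mouse transcripts, and the level of the human insert was not checked here. Each array read the pooled RNA of a culture, so a lower level in every cell and a smaller share of expressing cells cannot be told apart.

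NRF2, the transcription factor encoded by Nfe2l2, is held in the cytoplasm and sent to degradation by KEAP1. Oxidants and electrophiles modify KEAP1, and NRF2 then enters the nucleus, pairs with small MAF proteins and binds antioxidant response elements in front of genes for glutathione synthesis, quinone reduction, thioredoxin recycling and NADPH supply. Glutathione and thioredoxin are the thiol carriers that peroxidases, transferases and peroxiredoxins draw on, and both are reduced again with NADPH, much of it from the pentose phosphate pathway.

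The core of the antioxidant response element was searched for in promoters from RefSeq (GRCm38.p6), windows of 250 bases before to 50 bases after each transcript start. The motif was TGACNNNGC on either strand. It was present for 9 of the 34 member genes that had a promoter entry (26.5%) and for 14% of all 27025 genes in the table, 3781 of them. Stretches from 5 member promoters are shown because these genes stand at different steps of the pathway: the factor itself, glutathione synthesis, thioredoxin and peroxiredoxin recycling, and superoxide removal. Each is written 5′ to 3′ on the gene's strand with the match in capitals, and where the match lies on the opposite strand the capitals show its complement.
Nfe2l2, chr2:75704869-75704913, minus strand: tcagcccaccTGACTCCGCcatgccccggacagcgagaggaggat
Gclm, chr3:122245397-122245457, plus strand, match on the opposite strand: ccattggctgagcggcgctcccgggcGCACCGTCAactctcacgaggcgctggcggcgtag
Prdx1, chr4:116685440-116685500, plus strand, match on the opposite strand: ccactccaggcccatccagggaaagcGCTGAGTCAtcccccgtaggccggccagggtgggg
Txnrd1, chr10:82859088-82859148, plus strand, match on the opposite strand: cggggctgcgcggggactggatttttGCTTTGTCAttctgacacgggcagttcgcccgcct
Sod1, chr16:90220680-90220740, plus strand, match on the opposite strand: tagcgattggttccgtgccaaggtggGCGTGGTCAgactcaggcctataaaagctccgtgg
The matches began 240, 134, 133, 92 and 56 bases before the transcript start of Nfe2l2, Gclm, Prdx1, Txnrd1 and Sod1. The other 4 genes with a match were Srxn1, Gstm5, Pgd and G6pdx. A match is a run of letters in a window and not a measured binding site.

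None of the 34 member genes tested differed between the groups at an adjusted p under 0.05, with 0 higher and 0 lower, where 0.225% of all 13315 genes tested were called, 0.135% higher and 0.0901% lower (limma, brightest probe of each gene, Benjamini-Hochberg over all 27169 probes tested). At an unadjusted p under 0.05 there were 4 members, 1 higher (Txnip) and 3 lower (Cat, Txn1 and Gsto1), beside 10.1% of all genes, 5.2% higher and 4.94% lower. By probe, 8 of the 66 member probes tested had such a p, beside 9.08% of all probes. The log2 differences, FEAT minus control, ran from -0.59 for Cat to 0.59 for Txnip, with a median of -0.05 over the members and 0.01 over all genes. The 95% interval of the difference lay inside a 2-fold change for 33 of the 34 members and inside a 1.5-fold change for 24, beside 96.7% and 74.9% of all genes. Both counts include Gpx3 and Pgd, which were not above background on any array, so their intervals do not bound a change of the transcript. Sod3 was the 1 member whose interval reached 2-fold, from -1.0 to 0.07. In 5 members the 3 FEAT clones lay all above or all below the 3 control clones, 2 higher (Txnip and Gstp1) and 3 lower (Cat, Txn1 and Gpx4). That is 14.7% of members where 15.2% of all genes did so, 7.95% higher and 7.24% lower. The share of members without overlap was thus near that of all genes.

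**Figure D1:**
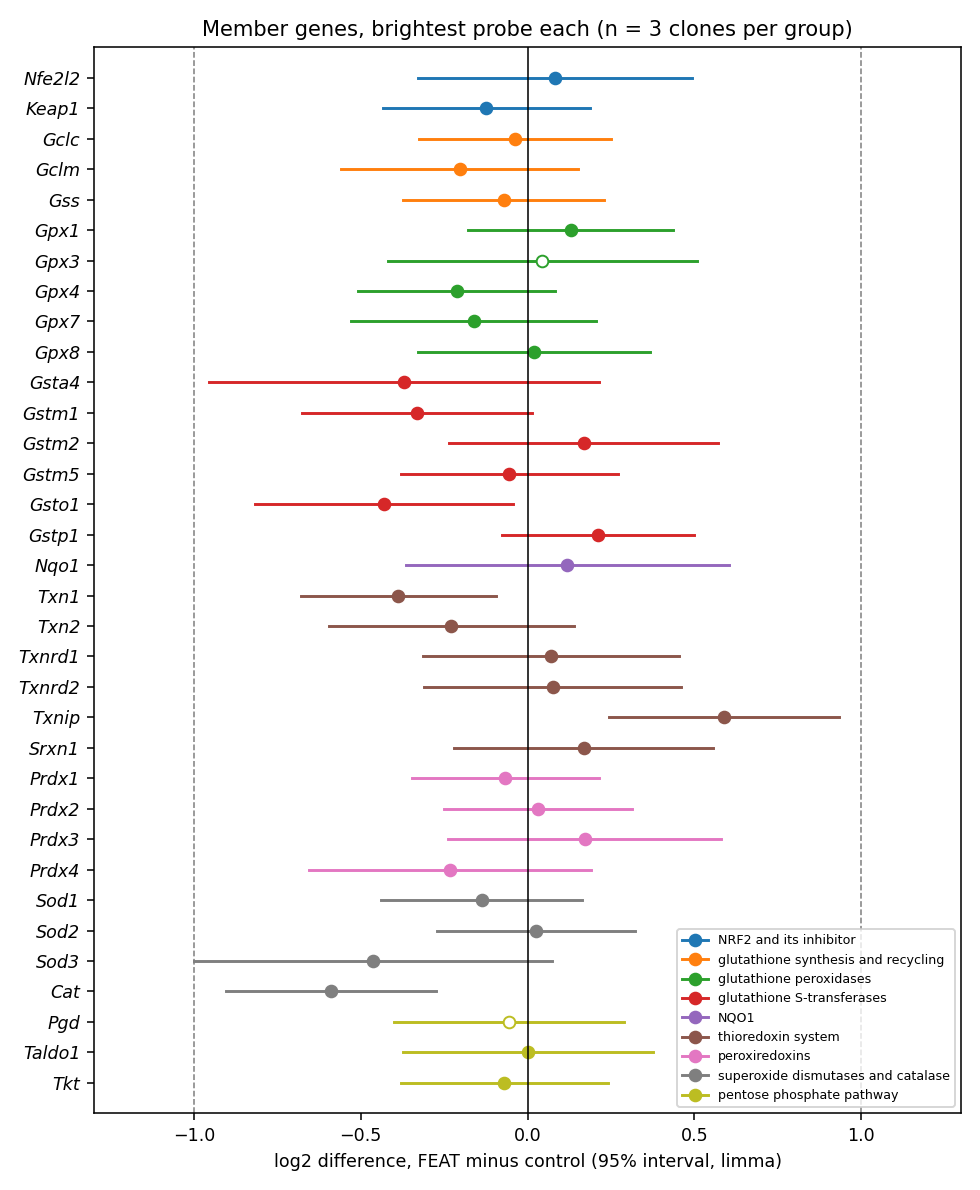
Log2 difference (FEAT minus control, horizontal axis) of the 34 member genes tested, with 95% intervals from limma on 3 clones per group, coloured by role, with open points for genes not above background on any array and dashed lines at a 2-fold change. Cat (-0.59) and Txnip (0.59) lie farthest from 0, and the interval of Sod3 is the 1 that reaches a dashed line.

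**Figure D2:**
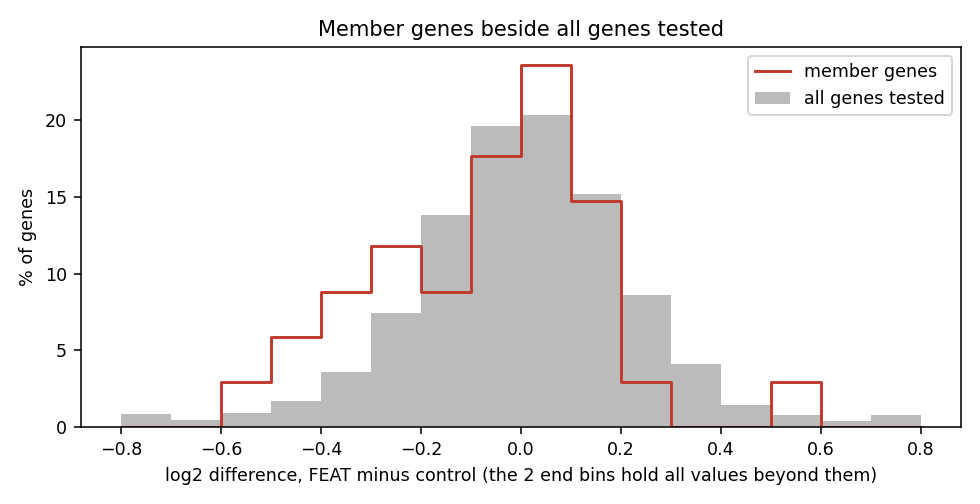
Share of genes (vertical axis, %) by log2 difference (horizontal axis, bins of 0.1, end bins holding all values beyond them) for all 13315 genes tested in grey and the 34 members in red. The median is -0.05 for members and 0.01 for all genes.

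Whole-array facts were as follows. Mean probe intensity ran from 616 to 735 over the 6 arrays, and 36.9% to 39.8% of probes were brighter than a background limit, which was placed 3 SDs above the mode of the array's log2 values, with the SD taken from the lower flank. Over all probes, 50 of 27169 passed (0.184%), 32 higher and 18 lower in FEAT clones, and this number fell to 0 without control 1 and grew to 157 without control 2. All 10 fibroblast markers looked at, among them Col1a1, Vim and Pdgfra, were above the limit on all 6 arrays. Their summed intensity was 61901 to 62064 in control clones and 63860 to 73164 in FEAT clones, and their median log2 difference was 0.31. Of these 10 genes 0 were called and 4 were higher at an unadjusted p under 0.05 (limma), and the part of this shift in the members' values was not tested. Of markers of other cells, 1 of 6 epithelial genes (Cdh1) was above the limit on all arrays, and 0 of 5 endothelial, 0 of 4 leukocyte and 0 of 4 adipocyte genes were. Intensities below are those of the deposited table in which all arrays share a mean of 680. The fit and the statements on overlap use normalized log2 values unless stated. Values of different probes are not amounts that can be set against each other.

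Nfe2l2 read 726, 598 and 650 in control 1, control 2 and control 3, and 788, 820 and 539 in FEAT 3, FEAT 15 and FEAT 20. FEAT 15 and FEAT 3 were the highest clones and FEAT 20 the lowest of all, so the FEAT group spanned the control group (log2 difference 0.08, SE 0.19, limma adjusted p = 0.931). Its inhibitor Keap1 read 1138, 1082 and 1105 in control clones and 887, 1236 and 1021 in FEAT clones (log2 -0.12, adjusted p = 0.844). The other Keap1 probes above background on all arrays gave -0.10, -0.18 and -0.33. On the last of these the groups did not overlap, at 480, 525 and 477 against 391, 416 and 418, with an unadjusted p of 0.0233 that did not pass (limma adjusted p = 0.443).

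Glutathione is made from glutamate, cysteine and glycine by glutamate-cysteine ligase, with a catalytic subunit from Gclc and a modifier subunit from Gclm, and then by glutathione synthetase, from Gss. Gclm read 4559, 4310 and 5907 in control clones and 4622, 4543 and 3764 in FEAT clones, so that control 3 was the highest and FEAT 20 the lowest (log2 -0.20, SE 0.16, adjusted p = 0.760). Gclc, on a dim probe, had a mean ± SD of 126 ± 3.16 in control and 123 ± 10.4 in FEAT clones, n = 3 each (log2 -0.04). Gss read 580 ± 53.9 and 562 ± 22.6 (log2 -0.07), and its other probes above background on all arrays gave 0.03 and -0.04. The groups overlapped in all 3 genes.

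Glutathione peroxidases reduce hydrogen peroxide or lipid peroxides. Gpx4, the selenoenzyme that reduces phospholipid hydroperoxides in membranes and guards against ferroptosis, read 18868, 16647 and 15342 in control clones and 14150, 13557 and 13719 in FEAT clones. All 3 FEAT clones lay below all 3 control clones, at a log2 difference of -0.21 (SE 0.13, limma adjusted p = 0.683). On normalized values the groups barely separated, with control 3 at -0.152 and FEAT 3 at -0.156 from the control mean. A further Gpx4 probe was also without overlap, at 4745, 4128 and 3517 against 3046, 3138 and 3484 (log2 -0.37, adjusted p = 0.452). The dimmest probe gave -0.23 with overlap. Gpx1, the cytosolic selenoenzyme, had overlapping groups at 15515 ± 1750 and 16080 ± 1362 (log2 0.13, adjusted p = 0.832). The differences of Gpx7 and Gpx8, family members of the secretory pathway, were -0.16 and 0.02. Gpx3, the plasma form, was not well above background on any array.

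Glutathione S-transferases join glutathione to electrophiles. Gsto1, of the omega class, read 14168, 15968 and 20195 in control clones and 10925, 14358 and 11304 in FEAT clones. FEAT 15 lay just above control 1, and the log2 difference was -0.43 (SE 0.18, unadjusted p = 0.0326, limma adjusted p = 0.488). Without control 3, the highest clone, it was -0.27 (unadjusted p = 0.151, limma), and without FEAT 3 or FEAT 20 the unadjusted p was 0.103 or 0.0936. Gstp1, of the pi class, read 16744, 17822 and 16370 against 17691, 18182 and 21624, with FEAT 20 the highest (log2 0.21, adjusted p = 0.679). Its groups did not overlap on normalized values, but FEAT 3 lay below control 2 in the deposited table. The next Gstp1 probe behaved the same way at 0.18, and the dimmest gave -0.03. The mu class went both ways: Gstm1 differed by -0.33 (adjusted p = 0.572), with control 3 down among the FEAT clones, and by 0.19 on a dim probe, Gstm2 by 0.17, 0.25 and 0.19 on its 3 probes, and Gstm5 by -0.05. Gsta4, of the alpha class and active on lipid aldehydes, was the most uneven within groups, at 2432, 4459 and 2742 in control clones and 3470, 2038 and 2092 in FEAT clones (log2 -0.37, SE 0.27, adjusted p = 0.728). The difference was -0.10 without control 2, and -0.66 without FEAT 3. It was -0.22 without FEAT 15 and -0.23 without FEAT 20. Gstt1 was not well above background on any array and was not tested. Gstm genes have close relatives, and which copies their probes read is uncertain, since probe sequences were not used here.

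The thioredoxin system held both Txnip (log2 0.59), the largest upward difference among the members' brightest probes, and Txn1 (-0.39). Txnip, which encodes a protein that binds and inhibits thioredoxin and limits glucose uptake, read 343, 412 and 319 in control clones and 497, 610 and 472 in FEAT clones. Every FEAT clone was above every control clone, 1.5-fold on normalized values (log2 0.59, SE 0.16, interval 0.24 to 0.93, unadjusted p = 0.00316), and the difference did not pass (limma adjusted p = 0.239). Its other probe gave the same picture, at 193, 192 and 175 against 278, 293 and 228 (log2 0.61, adjusted p = 0.180). Txnip was the 1 member gene whose tested probes were all without overlap in 1 direction. Cat missed this only through a probe below the background limit on every array. The share of all genes that meet it was not computed here.

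Txnip transcription is known to follow glucose supply through the factor pair MondoA or ChREBP with MLX, which bind a paired carbohydrate response element in its promoter. A pair of CACGAG runs with 5 bases between them, searched on both strands, was found in 1 of the 27025 genes with a promoter window, Txnip itself. The motif was taken from what is known of this promoter, so the match is no result of these data. It is printed because Txnip was the member with the largest upward difference.
Txnip, chr3:96557846-96557914, plus strand: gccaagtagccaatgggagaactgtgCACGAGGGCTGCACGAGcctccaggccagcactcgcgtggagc

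Txn1, cytosolic thioredoxin, read 3874, 3300 and 3595 in control clones and 2722, 2996 and 2628 in FEAT clones. All FEAT clones lay below all control clones (log2 -0.39, SE 0.13, interval -0.68 to -0.09, unadjusted p = 0.0142), without passing (limma adjusted p = 0.395). Without control 1 or FEAT 20 the unadjusted p was 0.0510 or 0.0571 (limma). A dim Txn1 probe, above background on all arrays, gave -0.29 with overlap. Txn2, the mitochondrial thioredoxin, read 1131, 996 and 1132 against 1064, 1051 and 762, with FEAT 20 alone below the control range (log2 -0.23, adjusted p = 0.733). The thioredoxin reductases Txnrd1, cytosolic and a selenoenzyme induced by NRF2, and Txnrd2, mitochondrial, differed by 0.07 and 0.08 (adjusted p = 0.938 and 0.935). Txnrd1 was read on a dim probe, at 155 ± 21.9 in control and 160 ± 21.1 in FEAT clones (SD, n = 3 each). The other Txnrd2 probe gave -0.25. Among the 13 member genes with more than 1 probe above background on all arrays, the probes had 1 sign in 7.

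**Figure D3:**
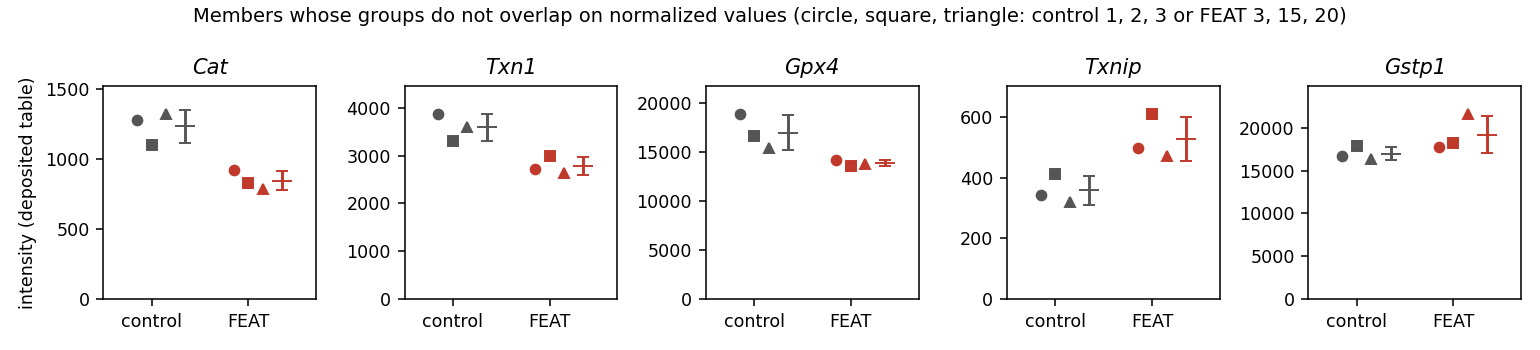
Intensity in the deposited table (vertical axes, from 0) of Cat, Txn1, Gpx4, Txnip and Gstp1 in each control clone (grey) and FEAT clone (red), with mean ± SD of 3 clones beside the points. Cat, Txn1 and Gpx4 are lower and Txnip is higher in every FEAT clone, while FEAT 3 lies below control 2 for Gstp1.

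Srxn1, sulfiredoxin, repairs overoxidised peroxiredoxins and is a strongly NRF2-dependent gene. It read 2519, 2460 and 2979 in control clones and 3649, 3083 and 2425 in FEAT clones, so FEAT 3 and FEAT 15 were the highest clones and FEAT 20 the lowest (log2 0.17, SE 0.18, adjusted p = 0.827). Its other probes gave 0.22 and 0.14. Nqo1, the quinone reductase often used to read NRF2 activity, was split in the same way, at 2979, 2568 and 2711 against 4171, 3075 and 2171. FEAT 3 was 2.07-fold above FEAT 20 in normalized values, a log2 gap of 1.05, while the difference of the group means was 0.12 (SE 0.22, adjusted p = 0.915).

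Peroxiredoxins are abundant peroxidases with a reactive cysteine. Prdx1 and Prdx2, both cytosolic, and Prdx3, mitochondrial, differed by -0.07, 0.03 and 0.17 with overlapping groups (limma adjusted p of at least 0.833). The sign of Prdx2 turned with the scaling, to -0.04 in the deposited table and -0.05 with median scaling. A dim second probe of Prdx1 was without overlap, at 179, 187 and 180 against 198, 202 and 206 (log2 0.19, limma adjusted p = 0.694). Prdx4, of the endoplasmic reticulum, read 17379, 19219 and 15419 in control clones and 10217, 16844 and 16359 in FEAT clones. Only FEAT 3 was below the control range, and the log2 difference was -0.23 (adjusted p = 0.772). A second Prdx4 probe had the smallest p of all member probes, with values of 94.3, 101 and 96.2 against 83.2, 77.4 and 76.1 (log2 -0.58, unadjusted p = 0.000788, limma adjusted p = 0.148). It was not well above background in any clone, so these values are not a measured level.

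Catalase, the peroxisomal enzyme that splits hydrogen peroxide, was the member gene with the smallest p on its brightest probe. Cat read 1277, 1099 and 1323 in control clones and 918, 832 and 788 in FEAT clones, 1233 ± 118 against 846 ± 66.4 (SD, n = 3 each). All FEAT clones lay below all control clones, 1.5-fold on normalized values (log2 -0.59, SE 0.14, interval -0.91 to -0.27, unadjusted p = 0.00167), but the difference did not pass (limma adjusted p = 0.181). Ranked by p, Cat stood at place 152 of the 13315 genes. The second Cat probe stayed below the background limit everywhere. Of the superoxide dismutases, Sod1 (cytosolic) and Sod2 (mitochondrial) differed by -0.14 and 0.03. Sod3, the secreted form, read 634, 824 and 668 in control clones and 641, 662 and 350 in FEAT clones (log2 -0.46, SE 0.25, adjusted p = 0.612). FEAT 20 alone was low, and without it the log2 difference was -0.13.

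The pentose phosphate genes Taldo1 (transaldolase) and Tkt (transketolase), of the non-oxidative branch, differed by 0.00 and -0.07 (limma adjusted p = 0.999 and 0.920). Taldo1 was uneven among the FEAT clones, at 10406, 13451 and 8681, against 10823, 10035 and 11403 in control clones. The probe of Pgd, an NADPH-producing enzyme of the oxidative branch, was not well above background on any array.

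Clones differed within the FEAT group in a way the group means do not show. FEAT 20 was the lowest of the 6 clones for 13 of the 34 members (38.2%), where it was lowest for 15.3% of all genes tested. In the deposited table the shares were 35.3% of members and 18.5% of all genes. Lists of other pathway genes varied in this. On normalized values FEAT 20 was lowest for 5 of 15 NRF2 regulators, 4 of 24 other NRF2 targets and 6 of 26 genes of glutathione turnover. It was lowest for 1 of 23 thioredoxin-related genes, 0 of 13 NADPH sources and 3 of 8 oxidant-producing enzymes. The 13 members lowest in FEAT 20 on normalized values were Nfe2l2, Nqo1, Srxn1, Gclm, Gss, Gpx8, Gstm1, Txn1, Txn2, Prdx1, Cat, Sod3 and Taldo1. In the deposited table Gss and Gpx8 were lowest in control 2 and control 3, and Pgd in FEAT 20. The median of the members against the control mean was -0.16 in FEAT 20, -0.05 in FEAT 3 and 0.01 in FEAT 15. FEAT 3 exceeded FEAT 20 on the log2 scale by 0.69 for Nfe2l2, 0.70 for Srxn1, 0.41 for Gclm and 0.60 for Txn2. The gap was 0.48 for Txnrd1, on a dim probe. Other members went the other way, with FEAT 3 minus FEAT 20 at -0.67 for Prdx4, -0.48 for Prdx3 and -0.29 for Sod2. Highest in FEAT 20 on normalized values were 5 members, Gstp1, Prdx2, Prdx3, Sod2 and Tkt. The array of FEAT 20 had the highest mean intensity, 735, and that of FEAT 3 the lowest, 616, before scaling; the part of array brightness in these gaps was not tested. With 1 array per clone these gaps have no replicate check.

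**Figure D4:**
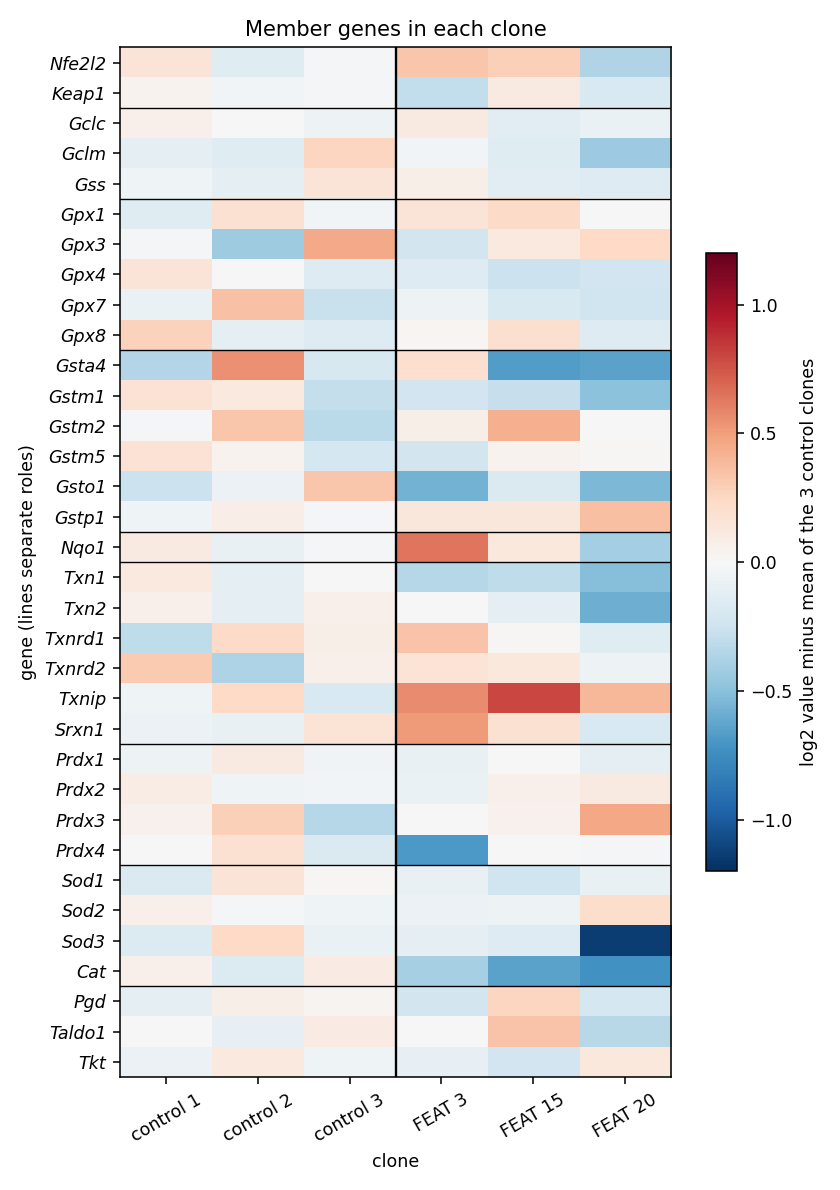
Log2 value minus the mean of the 3 control clones (colour) for the 34 member genes (rows, grouped by role) in each of the 6 clones (columns). Sod3, Nqo1, Txn2 and Gclm are low in FEAT 20, Nqo1 and Srxn1 are high in FEAT 3, and Cat is low and Txnip high in all 3 FEAT clones.

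**Figure D5:**
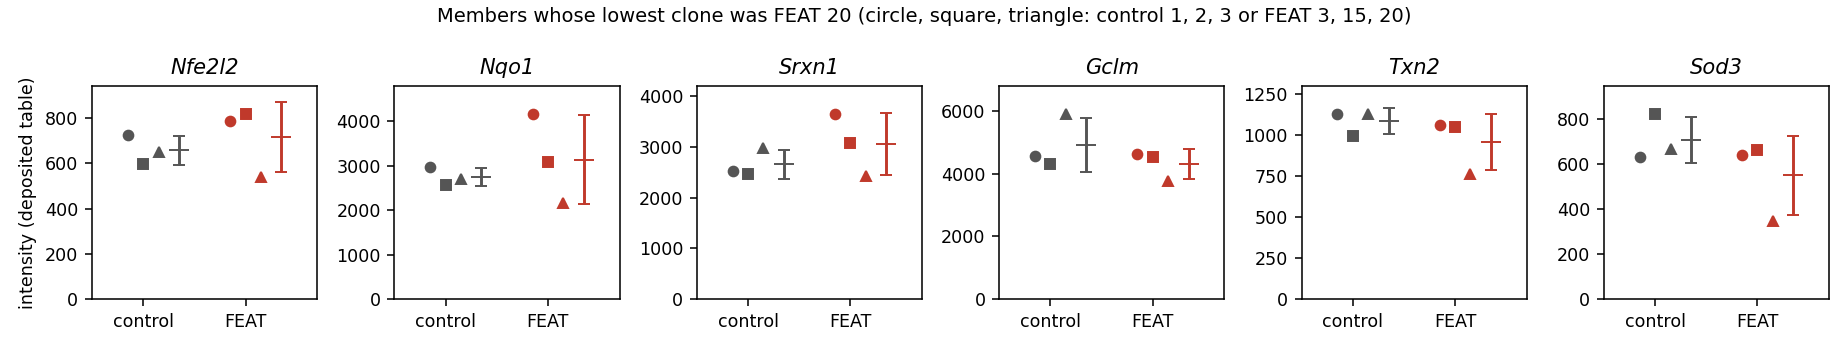
Intensity in the deposited table (vertical axes, from 0) of 6 members whose lowest clone was FEAT 20, in control clones (grey) and FEAT clones (red), with mean ± SD of 3 clones beside the points. Nqo1 reads 4171 in FEAT 3 and 2171 in FEAT 20, and the control clones lie between them.

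The SD of the log2 values was larger among FEAT than control clones for 16 of 34 members (47.1%) and for 45.4% of all genes. The median SD of the members was 0.19 in FEAT and 0.16 in control clones, whereas over all genes it was 0.15 in FEAT and 0.17 in control clones. These differences in spread were not tested. Nqo1, Sod3, Gsta4 and Prdx4 varied most among FEAT clones, with SDs of 0.53, 0.58, 0.50 and 0.40. The SD of Nqo1 among control clones was 0.10.

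Other genes of the pathway were read from lists that leave out the members. The calls in each list stand beside 0.225% of all genes tested. Among regulators and partners of NRF2, 0 of 15 tested were called, and the median log2 difference was -0.06. Sqstm1, whose product p62 captures KEAP1, read 9044, 11580 and 8552 in control clones and 7973, 6625 and 7428 in FEAT clones, without overlap (log2 -0.39, unadjusted p = 0.0280, limma adjusted p = 0.466). It was the 1 gene of this list without overlap (6.67%), beside 15.2% of all genes. Among other NRF2 target genes, 0 of 24 were called and the median was -0.07. Pir differed by -0.39 and Gsta1 by -0.81 (limma adjusted p = 0.503 and 0.572), both with overlap. Without overlap on normalized values were 1 higher gene and 1 lower gene (8.33%), beside 15.2% of all genes. The higher one was Fth1 (log2 0.27, limma adjusted p = 0.598), whose groups overlapped in the deposited table. FEAT 3 was the highest clone for 10 of these 24 genes (41.7%), beside 16.8% of all genes on normalized values and 25.7% in the deposited table.

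Genes of glutathione turnover and conjugation outside the members had 1 call, lower, among 26 tested, and 0 higher. Over all genes tested, 0.0901% were called lower and 0.135% higher. The median log2 difference of this list was -0.15. Without overlap were 5 of its genes (19.2%), all below the control clones, where 15.2% of all genes did not overlap, 7.24% lower. The list was chosen with earlier results of these data known, so this share is no independent finding. Chac1, which splits glutathione in the cytosol and is induced by ATF4, read 6968, 11194 and 9815 in control clones and 4164, 2616 and 4049 in FEAT clones. It fell by 1.40 on the log2 scale (SE 0.22, limma adjusted p = 0.0380). The call was kept in 5 of 12 other settings, with adjusted p over the 12 from 0.0184 to 0.191. It was lost without background correction (0.0875) and with only probes above background on 3 arrays (0.0610). It was also lost without control 1, control 3, FEAT 3, FEAT 15 or FEAT 20, at 0.149, 0.191, 0.0635, 0.0823 and 0.0549. The microsomal transferase genes Mgst1 and Mgst3 and the glyoxalase gene Hagh were without overlap too and did not pass. Mgst1 read 422, 807 and 342 against 304, 271 and 183 (log2 -1.12, adjusted p = 0.260). Mgst3 differed by -0.57, with -0.67 on its other probe, and Hagh by -0.49 (adjusted p = 0.248 and 0.367).

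Of the thioredoxin-related and other antioxidant proteins 0 of 23 were called (median -0.10), beside 0.225% of all genes tested. Without overlap were 3 higher genes and 1 lower gene of this list (17.4%), where 15.2% of all genes did not overlap. Txnrd3, the reductase of testis, was among the higher ones at 671, 661 and 642 against 814, 828 and 914 (log2 0.37, limma adjusted p = 0.394). Of NADPH sources outside the members 0 of 13 were called (median 0.02), with H6pd, which makes NADPH in the endoplasmic reticulum, at 0.55 and Idh1, which makes it in the cytosol from isocitrate, at -0.57 (adjusted p = 0.287 and 0.395). Of oxidant-producing enzymes 0 of 8 were called (median -0.15), with the spermine oxidase gene Smox at 0.53 and the xanthine dehydrogenase gene Xdh at -0.51 (adjusted p = 0.375 and 0.472). The NADPH oxidase genes Nox1, Nox3, Nox4 and Cybb were on the array and not among the brightest 60% of probes that were tested.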

How the data were processed

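Total RNA of each clone was amplified and read as Cy3 signal on 1 Illumina bead array, per the labels' protocols, and read with BeadStudio, per the submitters' processing notes. The deposited values were linear probe intensities without detection p. A deposited table for all 6 arrays gives those intensities times 1 factor per array (0.925 to 1.10). The lowest value on an array was 50.1 to 53.1, and such an offset shrinks ratios of dim probes. The number of arrays limits the precision. With R 4.3.3 and limma 3.58.1, normexp (offset 16, fitted to the signals), quantile normalization and log2 were applied, and the top 60% of probes by mean were tested with lmFit and eBayes, two-sided, at an adjusted p under 0.05. An exact test of 3 against 3 cannot give p below 0.1. The brightest probe stood for its gene. Probes were named through GEO's platform annotation: 34885 with 1 gene, 18 with several, which were not named, and 10378 unnamed here. Promoters came from RefSeq (GRCm38.p6), with entries for 34 members. Protein sequences were not used. The fit was tested on simulated data. All members are accounted for, values per clone are given for those whose groups did not overlap, and other lists give up to 4 genes with the smallest p. The members, lists, named genes and background limit were chosen with earlier results of these data known. Clones picked to show differences within the FEAT group (FEAT 20, FEAT 3) were chosen after their values were seen.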

Additional observations from a re-analysis of the deposited data

How the results depend on the processing

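The count of 0 called member genes stood in all 13 alternatives: 6 of scaling, filter and variance, the reading of every tested probe, and 6 omissions of a clone. Cat and Txnip were called in none of them, and the size of change that 3 clones a group could call is not stated here. The count of members without overlap, 5, was 4 or 5 in the scaling, filter and variance settings, beside 13.2% to 17.2% of all genes. It was 1 when every tested probe of a gene had to be without overlap, and that share over all genes was not computed. With a clone left out it was 7 to 10, where the share over all genes was 23.8% to 28.0%. The number of probes called over the array, 50, was 39 to 64 in the scaling, filter and variance settings. It was 0 to 157 with a clone left out. The median over members ran from -0.09 to -0.04. No paired analysis was possible because the clones were separate lines and the labels give no pairing between the groups. With 1 clone left out, 16 of 34 members changed sign in at least 1 omission, among them Nqo1 (-0.14 to 0.38), Nfe2l2 (-0.04 to 0.31), Txnrd2 (-0.11 to 0.23) and Gpx3 (-0.17 to 0.27). Of the 4 members with an unadjusted p under 0.05, Cat and Txnip kept it in every omission. Prdx2 and Taldo1 also changed sign with the scaling, and Gstp1 lost its separation in the deposited table and with median scaling. Txnip stayed between 0.48 and 0.71 and Cat between -0.69 and -0.52, with adjusted p down to 0.0943 and 0.0990 and up to 0.581 and 0.518.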
